A study of Apis mellifera with 27 samples.

Results

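The daily course of RNA in the memory centre of the honey bee (Apis mellifera) brain was followed in 1 colony, called colony 1 in the labels. Its 14 libraries were taken from the 27 libraries analysed, by the colony named in each label, and colony 2 holds the other 13. They comprise 2 libraries at each of 7 times, 06:00, 10:00, 14:00, 18:00 and 22:00 of day 11 and 02:00 and 06:00 of day 12, which are 4 h apart. The bees were foragers trained to a time of day, with no genotype or drug contrast among them. The tissue was laser-captured mushroom body enriched for small Kenyon cells, not a pure cell population, and polyadenylated RNA was sequenced. All groups shared the training, so no comparison with untrained bees is contained in these libraries. Colony 1 and colony 2 went through separate behavioural experiments, and 1 library of colony 2, replicate 1 at 06:00 of day 11, was not analysed here. Whether replicates are separate bees or pools of bees is not stated in the labels, so p-values measure the spread between these libraries, which may be technical.

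Honey bee foragers learn the hour at which a food source is available and return to it on following days. The insect clock is a loop in which the products of clock genes repress their own transcription, and in the bee the mammalian-type cryptochrome Cry2 acts with period (Per) as a repressor. Small Kenyon cells are intrinsic neurons of the mushroom bodies, where odour, colour and other cues are combined for learning, and they receive cholinergic input and aminergic modulation. The study asked which transcripts of this tissue follow the time of day and how the clock and the memory centre may be linked.

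The colony 1 libraries held 8732841 to 12277539 counts, and 9632 of 12319 gene identifiers passed the filter on low counts. Levels are given as CPM, each count over its TMM-scaled library total, with replicate 1 before replicate 2 at each time. Most identifiers are LOC numbers without a gene name, and 301 of the genes tested carried a gene symbol. The small Kenyon cell markers matched (Tk, E74, Ecr, For) were detected in every library and summed to 1310 to 1880 CPM. The large and middle Kenyon cell markers (Camkii, Pkc, Mblk-1) were also detected in every library, at 5400 to 8210 CPM. Libraries of the same time spread less in colony 1 than in colony 2, with biological coefficients of variation of 0.178 and 0.363. In bulk tissue, fewer cells of a type and less RNA per cell cannot be told apart.

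The clock gene Cry2 had a clear daily course in colony 1. Cry2 had 13.2 and 13.4 CPM at 06:00 of day 11, 5.85 and 7.39 CPM at 10:00, 11.4 and 10.2 CPM at 14:00, 18 and 19.8 CPM at 18:00, 24.1 and 23.5 CPM at 22:00, 16 and 19.1 CPM at 02:00 and 12.6 and 9.21 CPM at 06:00 of day 12. The lowest pair of libraries was at 10:00 and the highest at 22:00, and the 2 libraries of a time lay close together throughout. Cry2 changed over the 7 times (adjusted p = 0.00519, edgeR's quasi-likelihood test) and followed a 24-h cosine (adjusted p = 0.00165) with a fitted peak at 22.3 h and a peak-to-trough fold of 3.04. Its level at 22:00 averaged 23.8 CPM, against 6.62 CPM at 10:00, a log2 difference of 1.84 with SE 0.27 (adjusted p = 0.00132). It was also lower at 10:00, with a mean of 6.62 CPM, against 13.3 CPM at 06:00 of day 11 (adjusted p = 0.0307), a call lost without any 1 library of these times. Both calls over the whole course held when any 1 of the 14 libraries was left out. Both were lost when the fit took its spread from all 27 libraries.

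Per, the other clock gene matched, had no such course. Per had 25.3 and 28.3 CPM at 06:00 of day 11, 29.1 and 33.8 CPM at 10:00, 27.3 and 31.2 CPM at 14:00, 38.1 and 34.5 CPM at 18:00, 30.3 and 39.4 CPM at 22:00, 31.6 and 27.9 CPM at 02:00 and 40.3 and 27.1 CPM at 06:00 of day 12. The libraries of 06:00 of day 12 differed from each other by almost as much as any 2 libraries of the course, and the fitted peak, at 19.7 h, had a peak-to-trough fold of 1.17. The change over time (adjusted p = 0.71) and the cosine (adjusted p = 0.616) missed the threshold.

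**Figure D1:**
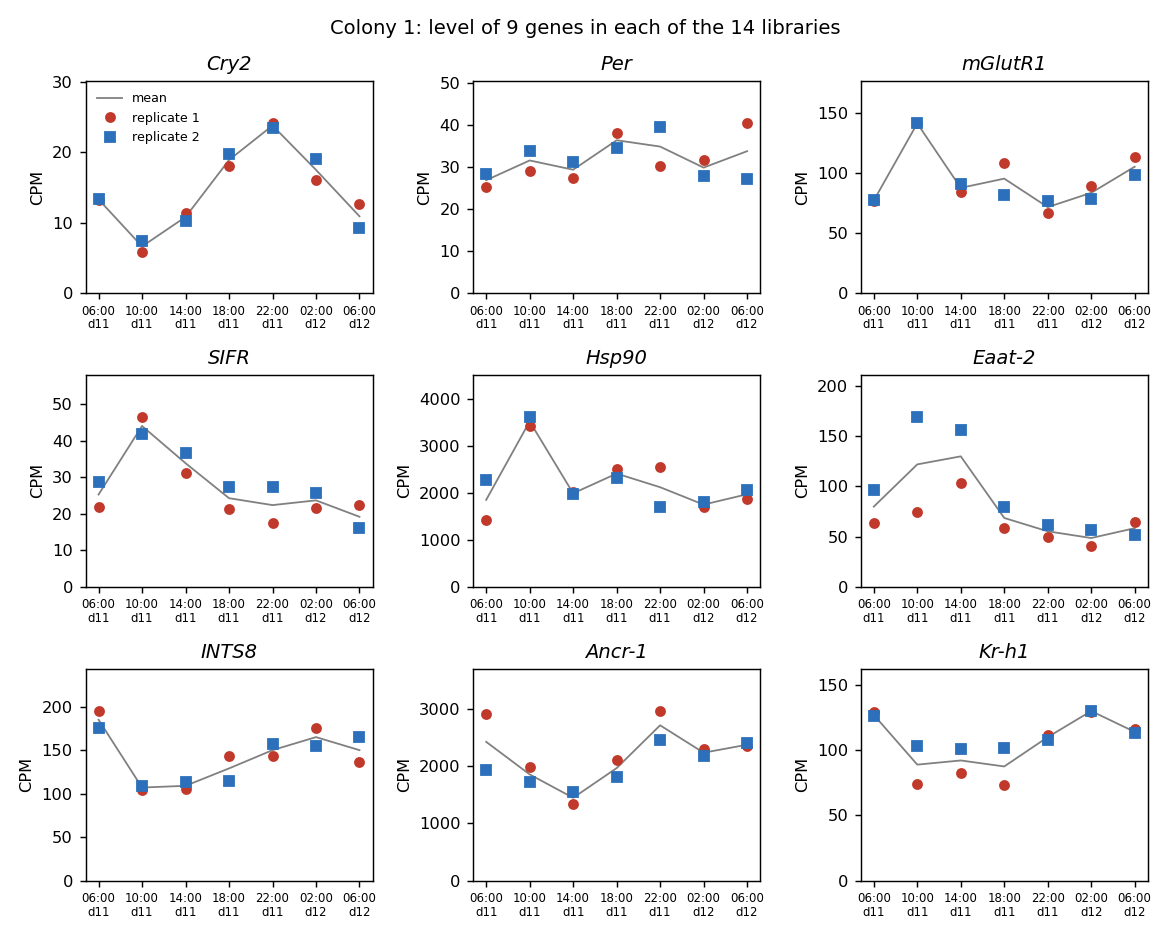
Levels of 9 genes in CPM (vertical axes, from 0) in each of the 14 colony 1 libraries against sampling time. Circles are replicate 1, squares replicate 2 and the line joins the mean of the 2 libraries at each time; Cry2 is lowest at 10:00 (5.85 and 7.39 CPM) and highest at 22:00 (24.1 and 23.5 CPM), while mGlutR1, SIFR and Hsp90 are highest at 10:00.

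Across the 9632 genes tested, 368 changed over the 7 times (3.82%) and 520 followed a 24-h cosine (5.4%), with 249 genes in both sets. Genes carrying a symbol made up 13 of the 368 and 21 of the 520, of 301 tested. Fitted peaks of the genes with a cosine lay mostly in 2 windows of the day, which also held the larger shares of all genes tested. A midday group of 292 genes peaked between 10 and 16 h, 56.2% of the genes with a cosine, against 36.0% of all genes tested. A night group of 201 genes peaked between 22 and 4 h, 38.7% of the genes with a cosine, close to the 33.2% of all genes tested. Between 4 and 10 h 14 genes peaked (2.69%, against 15.3% of all genes tested), and between 16 and 22 h 13 did (2.5%, against 15.5%). The median peak-to-trough fold of the genes with a cosine was 1.53, against 1.22 for all genes tested, and the fold reached 2 or more for 103 genes and 3 or more for 33. Only LOC100577833 departed from a cosine (0.0104% of genes tested).

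**Figure D2:**
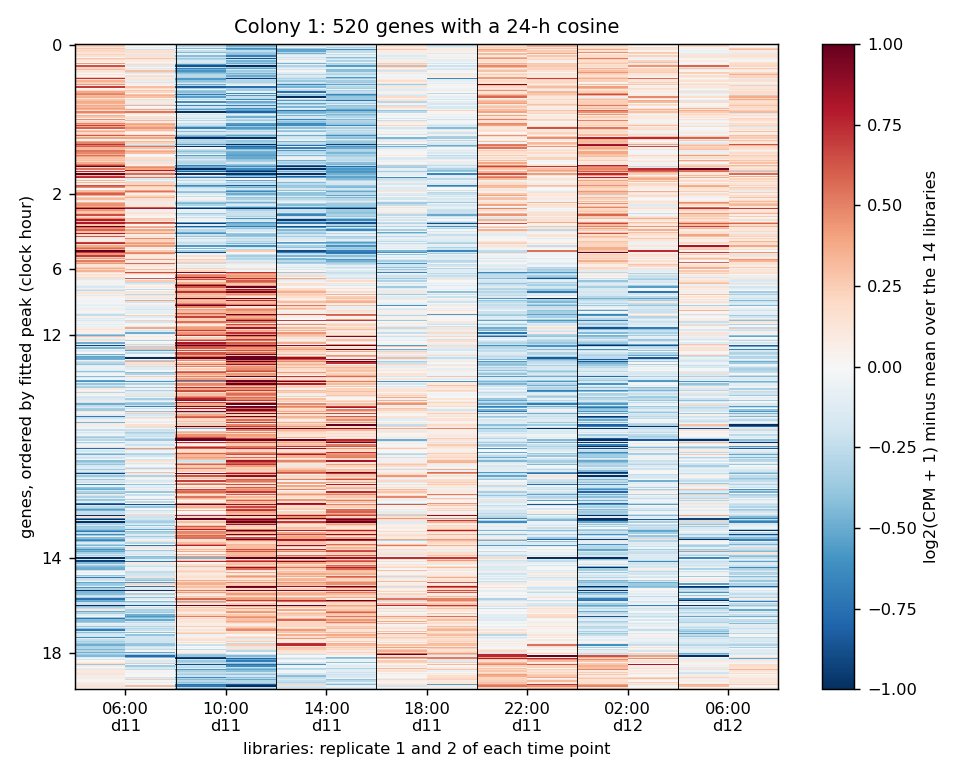
Each line across the map is 1 of the 520 genes with a 24-h cosine, ordered down the page by fitted peak hour, and each column is 1 of the 14 colony 1 libraries in order of sampling time. Colour gives log2(CPM + 1) minus the gene's mean over the 14 libraries. Peak hours start at midnight at the top, so the night group lies partly at the top and partly at the bottom. The night group is low at 10:00 and 14:00, and the midday group of 292 genes is high there.

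These counts rested on few libraries. The count over time was 178 to 412 and the cosine count 226 to 684 when 1 library was left out. Without replicate 1 or 2 of 14:00 the count over time was 184 and 178, and without replicate 1 or 2 of 22:00 it was 213 and 242. The cosine count fell to 255 without replicate 2 of 10:00, 308 and 261 without replicate 1 and 2 of 14:00, 322 without replicate 2 of 18:00, 284 and 311 without replicate 1 and 2 of 22:00, 226 without replicate 1 of 02:00 and 344 without replicate 2 of 06:00 of day 12. With the spread taken from all 27 libraries, 18 genes changed over time and 4 followed a cosine in colony 1, and with the libraries of each time summed to 7 points 89 genes followed a cosine.

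Markers of other cell and tissue types were compared with the hours of the midday group. The glial transporter gene Eaat-2, the only glial marker matched, summed to 74.9 and 169 CPM at 10:00 and 103 and 156 CPM at 14:00, and 40.5 to 96.2 CPM at the other times. The 6 muscle troponin genes tested of 7 matched summed to 89.8 to 109 CPM at 10:00 and 14:00, and 36.8 to 77.1 CPM at the other times apart from 1 library of 02:00 with 172 CPM. The 12 gland, fat body and hemolymph genes tested of 19 matched summed to 439 to 1090 CPM at 10:00 and 14:00 and 110 to 1030 CPM at the other times. The 4 opsin genes summed to 44.6 to 178 CPM at 10:00 and 14:00 and 42.9 to 155 CPM at the other times. The royal jelly protein genes Mrjp2, Mrjp5 and Mrjp6 were at 0 in some libraries. Of these 23 genes only Eaat-2 passed the cosine test and none passed over time, and the part of these tissues in the midday group was not tested.

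**Figure D3:**
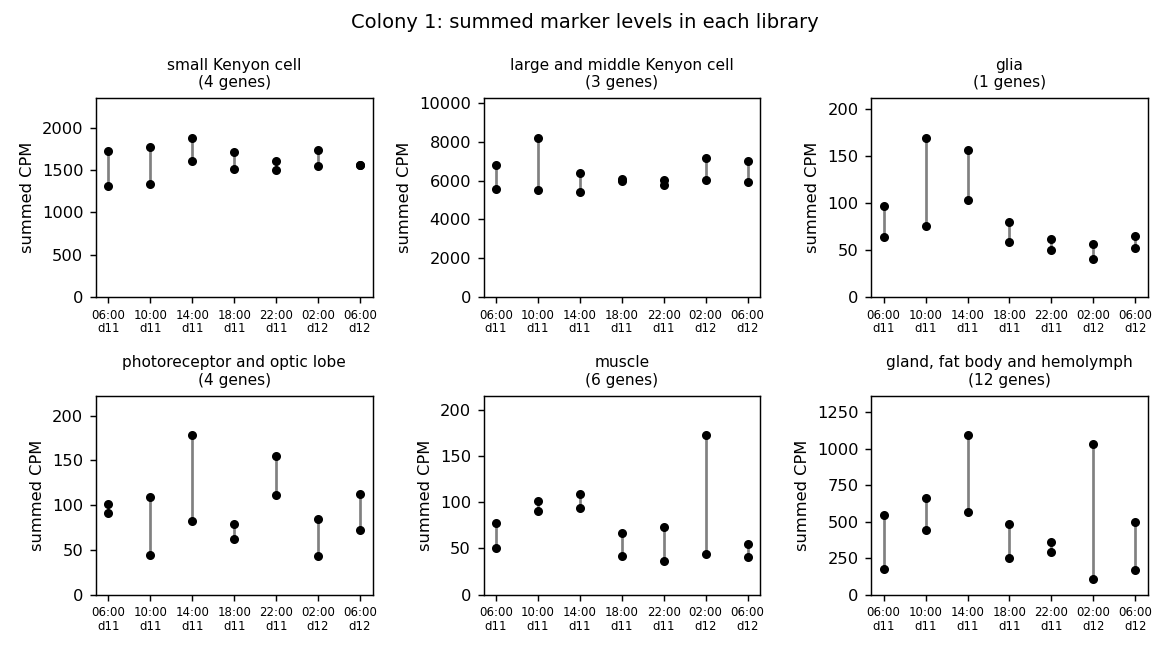
Summed level in CPM (vertical axes, from 0) of the marker genes of 6 cell or tissue types in each of the 14 colony 1 libraries against sampling time, with a line joining the 2 libraries of a time. Glial and muscle sums are high at 10:00 and 14:00, where muscle markers reach 89.8 to 109 CPM, and 1 library of 02:00 stands out with 172 CPM of muscle markers.

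The largest change between neighbouring times came in the first 4 h. At 10:00 against 06:00 of day 11, 651 genes differed (6.76%), of which 340 were higher at 10:00 (3.53%) and 311 lower (3.23%), with median log2 differences of 0.65 and -0.65. At 14:00 against 10:00, 5 genes differed (0.0519%), 3 higher and 2 lower at 14:00. This split was not stable: DESeq2 called 77 genes with 18.18% of them higher at 14:00, and without replicate 2 of 10:00 there were 46 calls with 19.57% higher. Without the filter on low counts there were 30, with 26.67% higher. None of the 4 later steps gave a call (18:00 against 14:00, 22:00 against 18:00, 02:00 against 22:00 and 06:00 of day 12 against 02:00, 0.0% each), with 560, 438, 316 and 225 genes at an unadjusted p under 0.05 in edgeR. DESeq2 gave 0, 2, 0 and 0 calls for the same steps. No gene was called at 06:00 of day 12 against 06:00 of day 11 (0.0%), where 587 genes had an unadjusted p under 0.05 in edgeR and DESeq2 called 3. The first step gave 342 calls without replicate 1 of 06:00 of day 11 and 383 without replicate 2 of 10:00, fits in which the remaining library of that time is assumed to vary like the others.

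Genes that were higher or lower at 10:00 moved back by degrees. The 340 genes higher at 10:00 had median log2 differences from 06:00 of day 11 of 0.64 at 10:00, 0.39 at 14:00, 0.33 at 18:00, 0.13 at 22:00, 0.10 at 02:00 and 0.16 at 06:00 of day 12. The 311 lower genes had medians of -0.65, -0.45, -0.32, -0.17, -0.14 and -0.19 at the same times. Since these genes were chosen by the first step and every value is set against the same 06:00 libraries, the medians are a description of the course and carry no test.

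**Figure D4:**
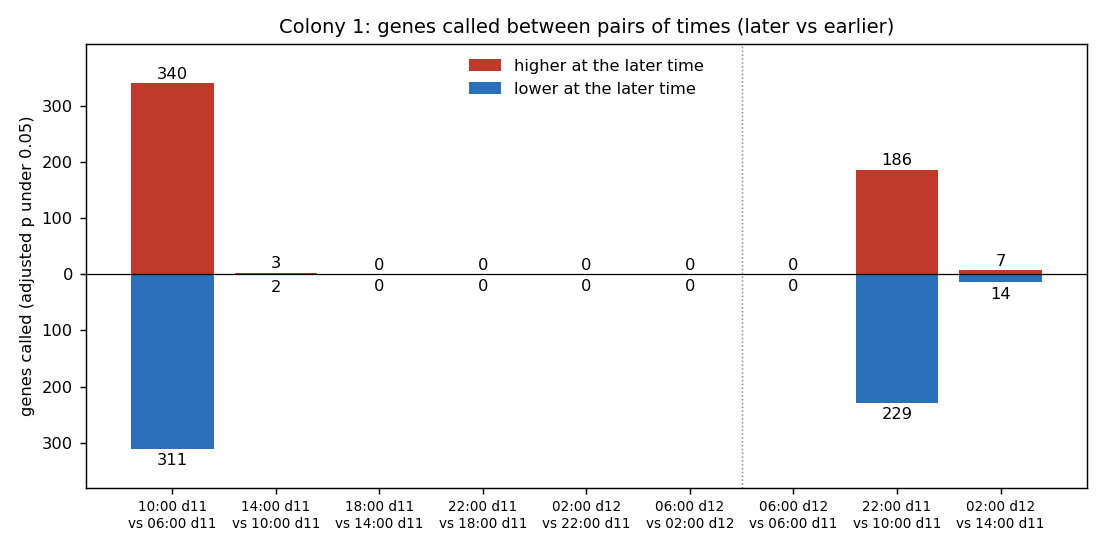
Number of genes called (adjusted p under 0.05, edgeR) for each pair of times in colony 1, with the later time named above the earlier; bars above 0 count genes higher at the later time and bars below 0 genes lower there. The first step, 10:00 against 06:00 of day 11, has 340 higher and 311 lower genes, and the 12-h pair 22:00 against 10:00 has 186 and 229.

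Of the 2 pairs of times 12 h apart, 22:00 against 10:00 gave far more calls than 02:00 against 14:00. At 22:00 against 10:00, 415 genes differed (4.31%), 186 higher at 22:00 (1.93%) and 229 lower (2.38%). At 02:00 of day 12 against 14:00 of day 11, 21 genes differed (0.218%), 7 higher at 02:00 (0.0727%) and 14 lower (0.145%). The first of these counts fell to 111 and 64 without replicate 1 and 2 of 22:00, and without replicate 2 of 10:00 29.58% of 311 calls were higher at 22:00, against 44.82% with all libraries. The second, of which 53.76% of 93 calls were higher at 02:00 without the filter on low counts, was 3 and 0 without replicate 1 and 2 of 14:00, 2 without replicate 1 of 02:00, 46 and 45 without replicate 1 and 2 of 06:00 of day 11, and 73 and 71 without replicate 1 and 2 of 10:00.

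Among the 13 genes with a symbol that changed over time were receptor genes for glutamate, SIFamide and serotonin. The metabotropic glutamate receptor gene mGlutR1 had 76.2 and 77.6 CPM at 06:00 of day 11, 141 and 141 CPM at 10:00, 84.1 and 90.7 CPM at 14:00, 108 and 81.8 CPM at 18:00, 66.4 and 76.5 CPM at 22:00, 88.6 and 78.1 CPM at 02:00 and 113 and 97.7 CPM at 06:00 of day 12. The 2 libraries of 10:00 lay above the other 12. It changed over time (adjusted p = 0.00307) and was higher at 10:00 than at 06:00 of day 11 by a log2 difference of 0.88 with SE 0.14 (adjusted p = 0.00123), calls that each held when any 1 library was left out. Its cosine missed the threshold (adjusted p = 0.104).

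SIFR encodes the receptor of the neuropeptide SIFamide. SIFR had 22 and 28.6 CPM at 06:00 of day 11, 46.5 and 41.8 CPM at 10:00, 31.2 and 36.7 CPM at 14:00, 21.3 and 27.3 CPM at 18:00, 17.4 and 27.4 CPM at 22:00, 21.6 and 25.7 CPM at 02:00 and 22.3 and 16.2 CPM at 06:00 of day 12. Its libraries of 10:00 were above all the others. SIFR changed over time (adjusted p = 0.0324), and at 22:00 it averaged 22.4 CPM, against 44.1 CPM at 10:00, a log2 difference of -0.98 with SE 0.24 (adjusted p = 0.0244), a call lost without replicate 1 of 10:00 or of 22:00. The change over time lost its call in 6 of the 14 fits that left out 1 library, and SIFR overlaps 3 annotated neighbours whose reads could not be separated from its own.

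The serotonin receptor gene 5-HT2alpha ran the other way. It had 53.5 and 49.5 CPM at 06:00 of day 11, 40.4 and 39.8 CPM at 10:00, 47.4 and 44.5 CPM at 14:00, 47.6 and 49.5 CPM at 18:00, 55.1 and 49.3 CPM at 22:00, 54.5 and 63.4 CPM at 02:00 and 70.2 and 63.9 CPM at 06:00 of day 12. The lowest pair was at 10:00 of day 11 and the highest at 06:00 of day 12. It changed over time (adjusted p = 0.0354), a call lost in 10 of the 14 fits that left out 1 library.

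Within the biogenic amine genes, 1 of 11 tested passed over time, 5-HT2alpha, and 1 with a cosine, the dopamine receptor gene DopR2. An unadjusted p under 0.05 was reached by 4 over time and 4 with a cosine, and DESeq2 called 3 and 2. For this and the following lists, the background over all 9632 genes was 3.82% over time and 5.4% with a cosine. DESeq2 called 935 and 974 genes. The share of all genes at an unadjusted p under 0.05 in these tests is not given, so such counts carry no reading of their own. DopR2 had 263 to 273 CPM at 22:00, against 320 to 399 CPM at 06:00 of day 11, and its cosine peaked at 6.61 h with a fold of 1.36 (adjusted p = 0.0325). Of 11 acetylcholine genes, 0 passed over time (4 had an unadjusted p under 0.05 and DESeq2 called 2) and 2 passed with a cosine. AChE-2, an acetylcholinesterase that breaks down acetylcholine, peaked at 11.4 h with a fold of 1.34 (adjusted p = 0.0325). The calls of DopR2 and AChE-2 were each lost in 6 of the 14 fits that left out 1 library. The nicotinic receptor subunit gene nAChRa4 peaked at 22 h with a fold of 1.96 (adjusted p = 0.0405), a call lost in 10 of the 14 fits that left out 1 library. Another subunit gene, nAChRa1, averaged 36.5 CPM at 22:00, against 58.6 CPM at 10:00, a log2 difference of -0.69 with SE 0.17 (adjusted p = 0.0307), a call lost without any 1 library of these times.

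Of 10 glutamate, GABA and histamine genes, 1 passed over time, mGlutR1, and 1 with a cosine, Eaat-2, which removes glutamate from the synaptic space. An unadjusted p under 0.05 was reached by 2 over time and 3 with a cosine, and DESeq2 called 3 and 2. Eaat-2 had 63.5 and 96.2 CPM at 06:00 of day 11, 74.9 and 169 CPM at 10:00, 103 and 156 CPM at 14:00, 58.1 and 79.1 CPM at 18:00, 49.4 and 61.2 CPM at 22:00, 40.5 and 56.6 CPM at 02:00 and 65 and 51.8 CPM at 06:00 of day 12. Replicate 1 of 10:00 lay within the range of the other times, while the libraries of 14:00 were above all those from 18:00 on. The cosine peaked at 12.4 h with a fold of 2.81 (adjusted p = 0.0403), a call lost in 9 of the 14 fits that left out 1 library.

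Among 10 synaptic adhesion and release genes, 1 passed over time and 0 with a cosine (2 at an unadjusted p under 0.05, and 0 in DESeq2). It was NLG-5, a neuroligin that bridges the synaptic cleft. NLG-5 had 23.6 and 28.9 CPM at 06:00 of day 11, 21.3 and 23 CPM at 10:00, and 32.3 to 50.4 CPM at every later time. At 22:00 it averaged 40.7 CPM, against 22.2 CPM at 10:00, a log2 difference of 0.88 with SE 0.20 (adjusted p = 0.0165), a call lost without replicate 1 of 10:00 or either library of 22:00. Its change over time (adjusted p = 0.0392) was lost in 11 of the 14 fits that left out 1 library. Of 11 neuropeptide and receptor genes tested, of 12 matched, SIFR alone passed over time and 0 with a cosine. In each of these tests 2 had an unadjusted p under 0.05, and DESeq2 called 2. The median level of these neuropeptide genes was 3.77 CPM.

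Of 7 cAMP, calcium and cGMP signalling genes, 1 passed over time and 2 with a cosine. Over time 4 had an unadjusted p under 0.05 and DESeq2 called 3, and with a cosine both counts were 2. Their median peak-to-trough fold was 1.12, against 1.22 for all genes tested. The adenylyl cyclase gene Ac3, whose product makes cAMP, had 163 and 159 CPM at 06:00 of day 11, 118 and 117 CPM at 10:00, 167 and 144 CPM at 14:00, 179 and 173 CPM at 18:00, 156 and 155 CPM at 22:00, 193 and 171 CPM at 02:00 and 202 and 190 CPM at 06:00 of day 12. Both libraries of 10:00 were below the other 12. Ac3 changed over time (adjusted p = 0.00698), a call that held when any 1 library was left out, while its cosine missed the threshold (adjusted p = 0.336).

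The inositol trisphosphate kinase gene Ip3k and sGC-alpha1, a subunit of the nitric oxide receptor that makes cGMP, both peaked in the early afternoon. Ip3k had a fitted peak at 14.2 h and a fold of 1.45 (adjusted p = 0.0229), and ranged from 47.9 to 79.7 CPM. The peak of sGC-alpha1 was at 13.6 h with a fold of 1.48 (adjusted p = 0.024), and its libraries ranged from 51.2 to 96.2 CPM. The call of Ip3k was lost without either library of 14:00 or replicate 1 of 02:00, and that of sGC-alpha1 without replicate 1 of 14:00 or of 22:00. Camkii, a calcium-dependent kinase of memory formation, had a fold of 1.10 with no call over time (adjusted p = 0.928).

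The chaperone gene Hsp90 had its highest level at 10:00. Hsp90 had 1430 and 2280 CPM at 06:00 of day 11, 3430 and 3610 CPM at 10:00, 2020 and 1970 CPM at 14:00, 2500 and 2320 CPM at 18:00, 2540 and 1690 CPM at 22:00, 1690 and 1810 CPM at 02:00 and 1870 and 2060 CPM at 06:00 of day 12. The libraries of 10:00 were above the other 12. At 10:00 it averaged 3517 CPM, against 1855 CPM at 06:00 of day 11, a log2 difference of 0.92 with SE 0.20 (adjusted p = 0.0123), a call lost without replicate 1 of 06:00 or either library of 10:00. Its change over time (adjusted p = 0.0472) was lost in 10 of the 14 fits that left out 1 library, and also with DESeq2 size factors, without the filter on low counts and in limma-voom. It was the only 1 of 5 heat shock and ER chaperone genes to pass over time. In that test 3 of the 5 had an unadjusted p under 0.05, and DESeq2 called 3. With a cosine 0 passed (1 at an unadjusted p under 0.05, and 1 in DESeq2).

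INTS8, a subunit of the Integrator complex that processes small nuclear RNAs, had 195 and 176 CPM at 06:00 of day 11, 104 and 109 CPM at 10:00, 105 and 113 CPM at 14:00, 143 and 115 CPM at 18:00, 143 and 157 CPM at 22:00, 175 and 155 CPM at 02:00 and 136 and 165 CPM at 06:00 of day 12. The libraries of 10:00 and 14:00 were the lowest 4. INTS8 changed over time (adjusted p = 0.00402) and with a cosine (adjusted p = 0.00854) that peaked at 2.04 h with a fold of 1.65, and both calls held when any 1 library was left out.

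The splicing factor gene tra2 had 176 and 138 CPM at 10:00, against 112 and 84.7 CPM at 06:00 of day 11, a log2 difference of 0.68 with SE 0.16 (adjusted p = 0.0142). Its other libraries had 79.3 to 117 CPM, below both of 10:00. The change of tra2 over time (adjusted p = 0.0468) was lost in 10 of the 14 fits that left out 1 library. Rfwd3, known in human cells as a ubiquitin ligase of DNA repair, was lowest at 14:00 with 175 and 203 CPM and reached 356 CPM at 06:00 of day 11 (adjusted p = 0.0282 over time), a call lost in 6 such fits.

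The noncoding RNA Ancr-1, described in honey bee brains and other tissues, had 2920 and 1940 CPM at 06:00 of day 11, 1990 and 1720 CPM at 10:00, 1350 and 1550 CPM at 14:00, 2110 and 1820 CPM at 18:00, 2970 and 2470 CPM at 22:00, 2300 and 2190 CPM at 02:00 and 2360 and 2410 CPM at 06:00 of day 12. Both libraries of 14:00 were below the other 12. Ancr-1 changed over time (adjusted p = 0.0251) and with a cosine (adjusted p = 0.0247) that peaked at 1.42 h with a fold of 1.68. These calls were lost in 6 and 3 of the 14 fits that left out 1 library, those without either library of 14:00 among both, and Ancr-1 overlaps 1 annotated neighbour. It was 1 of 3 noncoding RNAs listed, and Kakusei, a nuclear RNA induced by neural activity in bees, had 0 to 1.26 CPM and no call over time (adjusted p = 0.873). A count of 0 in these libraries allows up to 0.348 CPM, a limit that covers counting error only.

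Among 9 ecdysteroid and juvenile hormone genes, 0 passed over time (2 at an unadjusted p under 0.05, and 1 in DESeq2). With a cosine 1 passed, Kr-h1, a transcription factor induced by juvenile hormone, while 5 had an unadjusted p under 0.05 and DESeq2 called 3. Kr-h1 had 129 and 126 CPM at 06:00 of day 11, 74.3 and 103 CPM at 10:00, 82.7 and 101 CPM at 14:00, 73.5 and 102 CPM at 18:00, 112 and 108 CPM at 22:00, 129 and 130 CPM at 02:00 and 116 and 113 CPM at 06:00 of day 12. Every library of 10:00, 14:00 and 18:00 was below every library of the other 4 times. The cosine peaked at 2.67 h with a fold of 1.51 (adjusted p = 0.0169) and held when any 1 library was left out.

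Fabp, uzip and CUTA, which belong to none of the lists, also had a cosine. The fatty acid binding protein gene Fabp peaked at 14 h with a fold of 1.89 (adjusted p = 0.0272), and uzip, a cell surface protein of growing axons in Drosophila, at 12.4 h with a fold of 1.78 (adjusted p = 0.022). CUTA peaked at 14.4 h with a fold of 1.63 (adjusted p = 0.036). Leaving out 1 library ended the calls of Fabp and uzip in 3 of 14 fits each and that of CUTA in 7. Fabp is listed as 2 copies in the table, so its counts are uncertain, and uzip and CUTA overlap annotated neighbours.

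Of 10 antioxidant genes tested, 1 passed with a cosine, the glutathione transferase gene GstS1, with a peak at 13.5 h and a fold of 1.46 (adjusted p = 0.039). Of 11 ribosomal and translation genes, Rpl41 passed with a cosine, with a peak at 0.56 h and a fold of 1.31 (adjusted p = 0.0472). Over time no antioxidant or ribosomal and translation gene passed. An unadjusted p under 0.05 over time was reached by 3 and 2 of them in that order, and DESeq2 called 3 and 2. The call of GstS1 was lost in 9 and that of Rpl41 in 11 of the 14 fits that left out 1 library. No member passed over time or with a cosine among 10 mitochondrial genes, 3 RNA and DNA modification genes, 2 channel genes, 11 odorant-binding and chemosensory genes tested of 24 matched, 9 odorant and gustatory receptor genes of 35, 8 immune genes of 9 and 14 cuticle genes of 27. In that order 3, 2, 1, 1, 0, 0 and 0 members had an unadjusted p under 0.05 over time and 2, 2, 1, 1, 0, 1 and 1 with a cosine in edgeR, and DESeq2 called 2, 0, 0, 0, 0, 1 and 0 over time and 1, 1, 1, 0, 0, 0 and 0 with a cosine. The median peak-to-trough fold was 1.11 for the mitochondrial genes, 2.03 for the odorant-binding and chemosensory genes and 2.00 for the cuticle genes, against 1.22 for all genes tested. The median levels of the last 2 of these lists were low, at 9.59 and 1.99 CPM.

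The courses with the largest range belonged to genes with no name in the files. LOC100578547 had 152 and 89.2 CPM at 06:00 of day 11, 19.3 and 11.5 CPM at 10:00, 39.7 and 33.6 CPM at 14:00, 50.3 and 37.9 CPM at 18:00, 80.9 and 83.9 CPM at 22:00, 106 and 80.4 CPM at 02:00 and 58.6 and 83.4 CPM at 06:00 of day 12. It was lowest at 10:00, changed over time (adjusted p = 0.00847) and at 10:00 averaged 15.4 CPM, against 120 CPM at 06:00 of day 11, a log2 difference of -2.97 with SE 0.33. LOC410562 had 56 and 55.9 CPM at 10:00, 8.22 to 26.3 CPM at every other time, and a cosine with a peak at 11.4 h and a fold of 3.74 (adjusted p = 0.00556). Its calls over time (adjusted p = 0.000192) and with a cosine held when any 1 library was left out.

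LOC726302 had 31.7 and 37.7 CPM at 10:00, against 7.06 and 3.88 CPM at 06:00 of day 11, a log2 difference of 2.67 with SE 0.40 (adjusted p = 0.000846). LOC725765 had 16.6 to 23.1 CPM at 10:00 and 14:00 and 4.4 and 4.72 CPM at 06:00 of day 11. LOC100576781 averaged 10.4 CPM at 10:00, against 48 CPM at 06:00 of day 11, and LOC551525 5.18 CPM at 10:00, against 17.1 CPM. All 4 of these genes changed over time (adjusted p = 0.00204, 0.0133, 0.00289 and 0.00289), and the call of LOC725765 was lost without replicate 1 of 14:00. LOC408827 had the largest cosine fold of the genes named, 8.32 with a peak at 12.2 h (adjusted p = 0.022), but its libraries of 10:00 had 116 and 316 CPM. LOC410368 (fold 4.01, adjusted p = 0.0129) and LOC410291 (fold 3.44, adjusted p = 0.0192) also peaked in the early afternoon, at 14.4 and 13.6 h. The call of LOC408827 was lost without replicate 2 of 14:00 or replicate 1 of 02:00, and that of LOC410291 without replicate 2 of 14:00.

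The gene that departed from a cosine, LOC100577833, was low at 10:00 only. It had 201 and 210 CPM at 06:00 of day 11, 90.7 and 70.8 CPM at 10:00, 280 and 241 CPM at 14:00, 171 and 250 CPM at 18:00, 257 and 291 CPM at 22:00, 245 and 211 CPM at 02:00 and 185 and 191 CPM at 06:00 of day 12. Its departure (adjusted p = 0.0121) was lost in 6 of the 14 fits that left out 1 library. At 14:00 it averaged 260.5 CPM, against 80.8 CPM at 10:00, a log2 difference of 1.69 with SE 0.16 (adjusted p = 7.49e-05), which held in each of those fits. The other 4 genes called in this step were LOC408960 and LOC726958, higher at 14:00 by 1.12 and 0.88 on the log2 scale, and LOC409701 and LOC410423, with differences of -0.81 and -0.55 (adjusted p = 0.0452 for each). Leaving out 1 library ended these 4 calls in 8 to 11 of 14 fits.

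The night side at 02:00 of day 12 was led by LOC412230, LOC412949 and LOC412863. LOC412863 averaged 150.3 CPM at 02:00, against 67.8 CPM at 14:00, a log2 difference of 1.15 with SE 0.15 (adjusted p = 0.00441). LOC412230 averaged 47.2 CPM at 02:00, against 19.6 CPM at 14:00, and LOC412949 33.1 CPM, against 14.5 CPM. Lower at 02:00 were LOC408803 (13.2 CPM, against 33.2 CPM at 14:00), LOC412858 (17.4 CPM, against 42.2 CPM) and LOC100577283 (16.5 CPM, against 39.5 CPM). Each of these 6 calls was lost without replicate 2 of 14:00. The ultraviolet opsin gene Uvop, 1 of the 4 opsins, averaged 28.1 CPM at 10:00, against 48.6 CPM at 06:00 of day 11, a log2 difference of -0.79 with SE 0.23 (adjusted p = 0.0447), a call lost in 11 of the 14 fits that left out 1 library.

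Colony 2 gave separate libraries in which to look at the genes called in colony 1. Of the 520 genes with a cosine in colony 1, 398 (76.5%) had a fitted peak in colony 2 within 4 h of that in colony 1, against 43.9% of all genes tested. Without the 3 colony 2 libraries that lay far from the rest, those of 06:00 and 10:00 of day 11, the share was 66.9%, against 43.2%. These 3 libraries were set by name, and no measure of their distance is given here. Of the 415 genes that differed at 22:00 against 10:00 in colony 1, 348 (83.9%) differed in the same direction in colony 2, against 58.7% of all genes tested, and of the 21 at 02:00 against 14:00 all 21 did, against 62.6%. Both colony 2 libraries of 10:00 are among those that lay far from the rest, so the share at 22:00 against 10:00 rests on them and has no value without them. Cry2 peaked at 21.9 h in colony 2 with a fold of 5.21, and the cosine there did not pass after adjustment (adjusted p = 0.302). Other named genes lay near or far. INTS8 peaked at 1.47 h in colony 2, against 2.04 h in colony 1, and Kr-h1 at 1.94 h, against 2.67 h. DopR2 peaked at 20.5 h in colony 2, against 6.61 h in colony 1, and Rpl41 at 10.3 h, against 0.56 h. Their colony 2 cosines had unadjusted p of 0.509 and 0.128 in edgeR, so these peak hours are poorly set. The cosines of DopR2 and Rpl41 did not differ between the colonies at the threshold (adjusted p = 0.467 and 0.275, edgeR). None of these genes had a cosine call in colony 2, where the lowest adjusted p of a cosine among genes named by rule was 0.131 (edgeR). Over time, INTS8, DopR2 and Rpl41 passed in colony 2, while Cry2 and Kr-h1 missed the threshold.

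**Figure D5:**
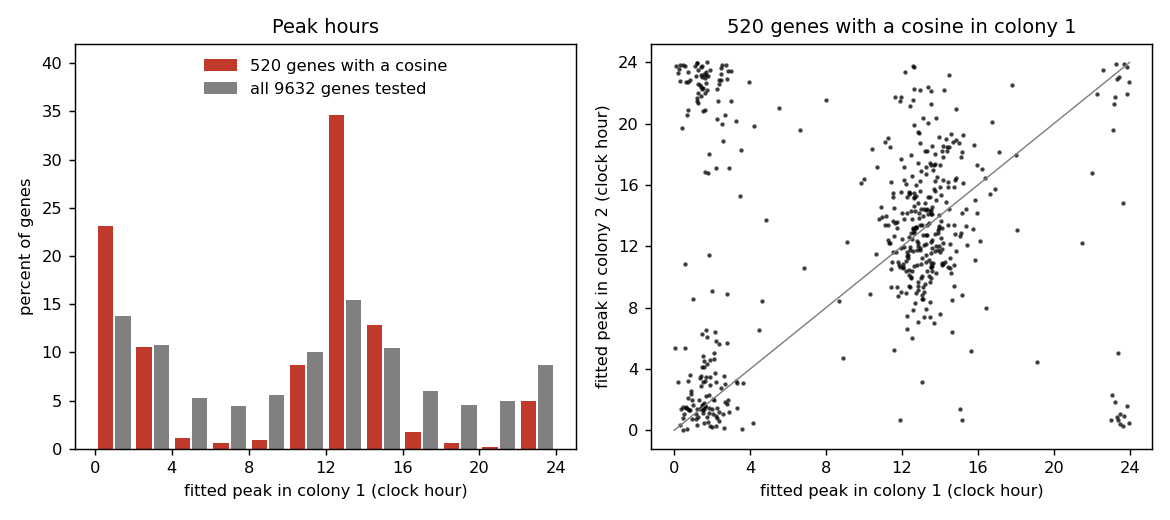
Left, percent of genes by fitted peak hour in colony 1, in 2-h bins, for the 520 genes with a cosine (red) and all 9632 genes tested (grey). Right, fitted peak hour in colony 1 against that in colony 2 for the genes with a cosine, with the line of equal hours; hours wrap at 24 h, so points in the upper left and lower right corners are close to the line, and 398 genes lie within 4 h.

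Tests of the difference between colonies are what a call in 1 colony cannot give. The cosine differed between colony 1 and colony 2 for 2 of 10497 genes (0.0191%), and the course over the 7 times for 2170 (20.7%). The second count was 10 without the 3 colony 2 libraries that lay far from the rest, a fit in which colony 2 holds 5 times. The first was 137 without them. Among the genes with symbols called above, the course over all 27 libraries differed for mGlutR1, 5-HT2alpha, DopR2, nAChRa1, Ac3, tra2 and Rfwd3. The same held for Ancr-1, Fabp, uzip, GstS1, Rpl41 and Uvop. SIFR, AChE-2, nAChRa4, Eaat-2, NLG-5, Ip3k, sGC-alpha1, Hsp90, INTS8, Kr-h1 and CUTA missed the threshold. None of these genes had a different cosine, and their calls without the 3 libraries are not given. For Cry2 neither the cosine (adjusted p = 0.852) nor the course (adjusted p = 0.174) differed between the colonies at the threshold.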

How the data were processed

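Raw read counts per gene were deposited by the authors for the 27 libraries, and the 14 of colony 1 were taken by their labels. Libraries were made with a strand-specific kit, per the labels' protocols, and the submitters' processing notes list STAR, featureCounts, Trimmomatic, FastQC and DESeq2 without versions. Build, annotation and strand setting are not given in the sources used here. Overlapping genes could therefore not be separated, and no coordinates are printed. Besides the genes flagged above, Eaat-2, NLG-5, DopR2, Ip3k, Camkii and E74 overlap annotated neighbours on either strand. So do LOC100578547, LOC410562, LOC725765, LOC408827, LOC410368, LOC408960, LOC408803, LOC100577283, LOC410259 and LOC410558. LOC412949 overlaps LOC409690 and the tyramine receptor gene TyrR. Of 12319 identifiers, 12166 equalled a symbol of the RefSeq gene table of Amel_HAv3.1, which was used for names and neighbours alone. Genes and lists were chosen with earlier results of these data known.

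Counts of colony 1 were analysed alone in R 4.3.3 with edgeR 4.0.16 (filterByExpr by time point, TMM scaling, glmQLFit robust, glmQLFTest). The tests were the change over 7 times, a 24-h cosine with 11 residual degrees of freedom, the departure from it, and 9 pairs of times, as later minus earlier. Differences between colonies were tested as interactions over all 27 libraries. P-values were adjusted by Benjamini-Hochberg over all genes tested and called under 0.05. SE was the absolute log2 difference divided by the square root of the F statistic. The code was tested on simulated counts with known changes. The shares of genes with near peaks in colony 2, and their plot, came from cosines fitted to log2(CPM + 1). Colony 2 peaks and folds of single genes came from edgeR fits to colony 2 alone. For genes named because they differed between colonies, both colonies' values came from the edgeR fit to all 27 libraries. Gene lists are described by counts and medians, with no test. Chi-square per degree of freedom between libraries of the same time was 11.12 to 25.62, so in none of these 7 pairs did the libraries agree within sampling noise. Genes were named by rule: the clock genes, called genes averaging at least 10 CPM with the largest range, cosine fold or log2 difference (those with symbols first or in a list of their own), up to 3 called or 2 most abundant members of each list, and the smallest p for differences between colonies. Most members named for a list without a call are covered by the counts or sums of that list alone. Results of 1 other gene named by the rule are left out. Alternatives were other scaling, no filter, DESeq2 1.42.0, limma-voom 3.58.1, a replicate block, a fit to all 27 libraries, summed libraries and libraries left out.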

Additional observations from a re-analysis of the deposited data

Results flagged for a closer look

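Genes whose course differed between the colonies are given here because their difference was itself tested over all 27 libraries. LOC409753 differed in its cosine (adjusted p = 0.0436, edgeR), with a peak at 0.86 h and a fold of 1.38 in colony 1 and a peak at 17.1 h and a fold of 2.12 in colony 2. At 18:00 it had 65.1 and 76.2 CPM in colony 1 and 156 and 196 CPM in colony 2. LOC410259 also differed in its cosine (adjusted p = 0.0436), with a peak at 4.25 h and a fold of 1.35 in colony 1 and at 14.7 h and a fold of 2.19 in colony 2. Both calls were lost in most fits that left out 1 colony 1 library, 12 and 13 of 14, and in limma-voom.

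The course over the 7 times differed for LOC409953 (adjusted p = 1.15e-06), LOC725646 (adjusted p = 2.69e-06), LOC726262 (adjusted p = 3.14e-05), LOC410558 (adjusted p = 3.14e-05) and LOC100577707 (adjusted p = 3.14e-05). Of these 5 calls, that of LOC410558 held without the 3 colony 2 libraries that lay far from the rest, and the other 4 were lost. The fold of a cosine in colony 1 was 1.43, 1.46, 1.33, 1.05 and 1.07 for these genes in that order, and 2.40, 2.50, 2.19, 1.77 and 1.99 in colony 2. Their cosines did not differ between the colonies at the threshold (adjusted p = 0.452 to 0.625, edgeR). All 5 were lower in colony 2 at 06:00 of day 11, where it holds 1 library. LOC409953 averaged 482 CPM in colony 1 at that time, against 41.0 CPM in that library.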

How the results depend on the processing

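No difference between a pair of times, among the genes named for it, changed sign under the alternatives run. The tests over time and of a cosine hold no sign, and shifts of the peak hour were not examined. Counts of calls and their split by direction moved. The share of calls higher at 14:00 against 10:00 was 26.67% without the filter, 18.18% in DESeq2 and 20.37% with the replicate block, against 60.0% as reported. Without the filter on low counts, 587 genes changed over time, 30 differed at 14:00 against 10:00, 93 at 02:00 against 14:00 (53.76% higher at 02:00, against 33.33% with the filter, 49.1% in DESeq2 and 47.78% with the replicate block) and 16 departed from a cosine. DESeq2 called 935 over time, 974 with a cosine, 106 departing from it, 77 at 14:00 against 10:00, 2 at 22:00 against 18:00, 3 at 06:00 of day 12 against day 11, 643 at 22:00 against 10:00 and 167 at 02:00 against 14:00. With the spread taken from all 27 libraries the counts were 18 over time, 4 with a cosine and 0 departing. Libraries summed to 7 points left 89 genes with a cosine, 68 of them shared with the 520. Leaving out both libraries of a time gave 146 to 469 genes with a cosine. Whether the same replicate number marks paired libraries across times is not stated in the labels, and the main fit held no replicate block. Correlations of replicate differences between times had a median of 0.013 and a highest value of 0.261, with 5 of 21 above 0.1. On the first principal component of the colony 1 libraries (21.18% of the variance), replicate 2 lay above replicate 1 at every time. The values were 3.07 and 44.2 at 10:00, and -10.3 and -9.98 at 22:00. A shared replicate effect was not tested. With the replicate block, 790 genes changed over time, 700 followed a cosine and 23 departed from it. In that fit 54 differed at 14:00 against 10:00, 676 at 22:00 against 10:00 and 180 at 02:00 against 14:00. Both Hsp90 calls, over time and at 10:00 against 06:00 of day 11, were lost with the block. Leaving out 1 library gave 178 to 412 over time, 226 to 684 with a cosine, 0 to 5 departing, 342 to 626 at 10:00 against 06:00, 1 to 46 at 14:00 against 10:00, 0 to 1 at 18:00 against 14:00, 0 to 2 at 22:00 against 18:00, 0 to 2 for the 2 times of 06:00, 64 to 498 at 22:00 against 10:00 and 0 to 73 at 02:00 against 14:00. Between colonies, limma-voom found 0 genes with a different cosine. That count was 137, and the count of different courses 10, without the 3 far colony 2 libraries. Leaving out 1 colony 1 library gave 0 to 2 different cosines and 1321 to 1974 different courses. Of the values for single genes under an alternative, 2651 kept their side of the threshold, 435 lost and 43 gained a call. The cause of these shifts was not tested. Each time had 2 libraries, and whether their number or the depth of counting limited precision was not tested.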

Other observations

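The highest levels of the genes that changed over time fell mostly at the first pair of sampling times. Of the 368 genes that changed over time, 160 had their highest mean at 10:00 (43.5%, against 23.3% of all genes tested) and 81 at 06:00 of day 11 (22.0%, against 16.9%). At 18:00 3 genes had it (0.815%, against 8.57%). The lowest mean fell at 10:00 for 101 genes (27.4%, against 21.4%), at 06:00 of day 11 for 74 (20.1%, against 17.2%) and at 02:00 of day 12 for 66 (17.9%, against 12.2%).

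Some called genes with symbols lay outside the naming rule and were chosen after their values were seen. Gycbeta1, a guanylyl cyclase subunit, had a cosine that peaked at 12.6 h with a fold of 1.31 (adjusted p = 0.0481). Emc, a helix-loop-helix inhibitor of transcription factors in Drosophila, changed over time (adjusted p = 0.0428) and had a cosine that peaked at 6.86 h with a fold of 1.39 (adjusted p = 0.014). Adk1 peaked at 1.20 h with a fold of 1.34 (adjusted p = 0.0285), Arp1 at 14.3 h with a fold of 1.31 (adjusted p = 0.0408) and CTL5 at 23.2 h with a fold of 3.15 (adjusted p = 0.0483), with CTL5 averaging 3.87 CPM.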
